A study of Mus musculus with 6 samples.

Results

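Lysosomal hydrolases, cathepsins and the proton pump were examined in bone marrow endothelial cells of diabetic and nondiabetic mice. The set held 43 genes, listed by symbol: membrane proteins of the lysosome, cathepsins and other proteases, glycosidases, lipid hydrolases with their activator proteins, subunits of the vacuolar proton pump, and the transcription factor gene Tfeb. Where several probe sets name a gene and no other, the one with the highest mean of the 6 arrays gave its value. Of the 43, 42 were measured among 22180 measured genes, and 41 were among the 13308 genes bright enough to test. There were 3 arrays of diabetic mice, made diabetic through high fat feeding, and 3 arrays of nondiabetic mice, all male C57BL/6J. A diet of 60 kcal% fat for 4 months is written on all 6 samples, which leaves the nondiabetic diet unsettled, and whether a group's samples came from separate or pooled mice is not stated. The p-values therefore cover the variation among these 6 samples alone, and that variation may be technical. Each sample was a sort of 5000 cells, profiled on a microarray whose deposited log2 values had array medians between 5.21 and 5.28.

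Lysosomes are the acidic compartments in which cells break down what they take up by endocytosis and what autophagy delivers. The vacuolar ATPase pumps protons into the lumen, the acid activates the proteases, glycosidases and lipases, and glycoproteins such as Lamp1 and Lamp2 line the inner face of the membrane. The endothelium of marrow sinusoids is known as a scavenger endothelium, which clears macromolecules from blood by endocytosis and degrades them in lysosomes. TFEB is the transcription factor known to raise many lysosomal genes together, by binding a palindromic E-box in their promoters called the CLEAR element.

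The sorted cells carried the markers of their label, and markers of other marrow cells were bright too. All 9 basophil and mast cell markers were bright enough to test. Their mean log2 level per array was 9.11 to 9.47 in diabetic and 8.83 to 9.71 in nondiabetic cells. The 9 measured megakaryocyte and platelet markers had means of 8.10 to 9.09 in diabetic and 7.85 to 8.87 in nondiabetic cells. The part of such cells in the lysosomal values was not tested. All 16 pan-endothelial markers were bright enough to test, with a mean log2 level per array of 9.05 to 9.80 in diabetic and 9.14 to 9.62 in nondiabetic cells. Diabetic replicate 1 stood apart at 9.80 for these markers, where the other diabetic arrays had 9.13 and 9.05. It also had the highest value of the diabetic group for 29 of the 41 tested lysosomal genes, or 70.7%, against 49.9% of all tested genes. Values without it are given beside some of the groups and genes below.

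No lysosomal gene passed the test. By limma with Benjamini and Hochberg adjustment over all tested genes, 0 of 41 were called in either direction at an adjusted p under 0.05, where 0.00751% of all tested genes were called (1 gene, lower), and the smallest adjusted p among them was 0.997. At an unadjusted p under 0.05, 3 lysosomal genes lay higher in diabetic cells (7.32%, against 3.19% of all tested genes) and 0 lay lower (against 1.07%, and 4.25% in both directions together). All 3 were cysteine proteases: Lgmn, Ctsh and Ctsl. The lowest diabetic array exceeded the highest nondiabetic array for 4 of the 41, which were these 3 genes and Manba (9.76%, against 5.28% of all tested genes). The reverse order held for 0 of the 41 (against 2.67%, and 7.95% of all tested genes had groups apart in either order). Of the 41, 25 had higher and 16 had lower values in diabetic cells, which is 61.0% higher against 54% of all tested genes, where 46% had lower values. The median log2 difference, diabetic minus nondiabetic, was 0.07, beside 0.02 over all tested genes. It was 0.02 without diabetic replicate 1, and then 21 genes had higher values. In sorted cells a smaller number of cells of 1 kind and less RNA per cell cannot be told apart.

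**Figure D1:**
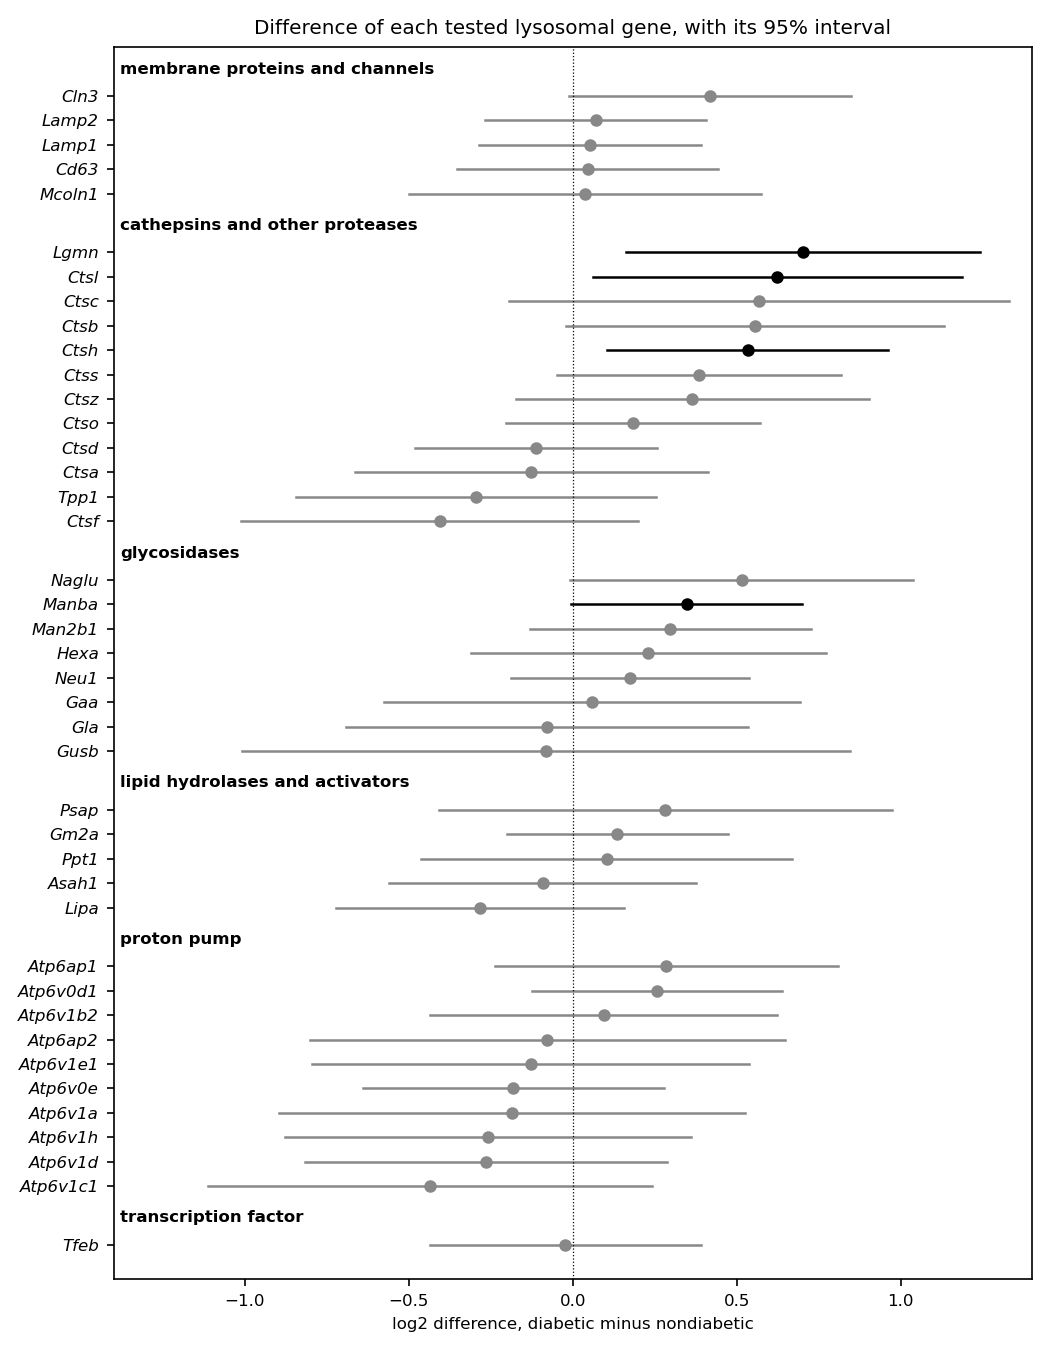
Log2 difference, diabetic minus nondiabetic, of the 41 tested lysosomal genes by role, with unadjusted 95% intervals from limma. Black marks the 4 genes whose diabetic arrays all lay above the nondiabetic arrays, which are Lgmn, Ctsl, Ctsh and Manba, and grey marks the others. Only the intervals of Lgmn, Ctsl and Ctsh lie wholly above 0.

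Tfeb, which encodes the factor that drives the lysosomal program, was close between the groups. Its log2 value was 5.38, 5.29 and 5.26 in diabetic replicates 1 to 3, and 5.12, 5.65 and 5.23 in nondiabetic replicates 1 to 3. The diabetic values lay inside the nondiabetic range. The difference was -0.02 (SE 0.18) with a 95% interval of -0.44 to 0.39. All 6 values stood near 5.07, the mean under which a gene was left out as dim.

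Promoters of the lysosomal genes were searched for the E-box of the CLEAR element, because the set is known for this shared motif. RefSeq promoter windows of assembly GRCm38.p6, from 250 bases before to 50 bases after a gene's start, matched 37 of the 43 genes with 43 windows. Ctsb, Ctsh, Asah1, Atp6v1b2, Atp6v1c1 and Atp6v1h had no window and are absent from the motif counts. The letters searched were the core CACGTG and the longer TCACGTGA that contains it. Each reads the same on both strands. At least 1 window held the core in 15 of the 37 genes, or 40.5%, against 8.09% of all 27025 genes with a window. The longer palindrome was in 8 of the 37, or 21.6%, against 1.12% of all genes. Per window the core was in 34.9% of the 43 lysosomal windows and in 7.15% of all 32851. Stretches of 60 bases from 10 of these genes are shown on the gene's own strand, with each complete motif in capitals. They were picked to show the core and the longer palindrome in genes of several roles, with higher and with lower values in diabetic cells.
Lgmn, chr12:102439109-102439168, minus strand: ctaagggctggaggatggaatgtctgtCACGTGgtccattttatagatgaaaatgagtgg
Ctsl, chr13:64370711-64370770, minus strand: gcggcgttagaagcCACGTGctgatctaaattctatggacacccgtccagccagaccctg
Naglu, chr11:101069994-101070053, plus strand: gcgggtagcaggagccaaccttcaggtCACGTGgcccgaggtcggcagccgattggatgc
Ctsf, chr19:4855059-4855118, plus strand: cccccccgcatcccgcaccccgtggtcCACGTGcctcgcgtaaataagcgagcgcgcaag
Cln3, chr7:126583339-126583398, minus strand: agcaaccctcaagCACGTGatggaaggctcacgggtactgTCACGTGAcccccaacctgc
Ctsd, chr7:142387893-142387952, minus strand: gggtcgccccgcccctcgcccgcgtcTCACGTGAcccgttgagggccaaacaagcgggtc
Ctsa, chr2:164833742-164833801, plus strand: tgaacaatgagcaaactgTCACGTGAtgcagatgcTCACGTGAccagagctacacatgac
Gla, chrX:134601184-134601243, minus strand: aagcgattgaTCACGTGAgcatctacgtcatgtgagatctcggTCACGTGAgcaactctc
Atp6v0d1, chr8:105566035-105566094, minus strand: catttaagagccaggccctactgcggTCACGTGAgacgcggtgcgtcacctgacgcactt
Atp6v1a, chr16:44139358-44139417, minus strand: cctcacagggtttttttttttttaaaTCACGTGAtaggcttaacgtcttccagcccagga

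Genes that hold the longer palindrome lay on both sides of 0. Among the 8 tested genes that hold it, 3 had higher and 5 had lower values in diabetic cells, with a median log2 difference of -0.10. The higher ones were Cln3, Atp6v0d1 and Mcoln1. The lower ones were Gla, Ctsd, Ctsa, Atp6v0e and Atp6v1a, and Ctsa and Gla hold 2 copies each. Among the 6 tested genes with the core alone, 5 had higher values and the median was 0.29, and Lgmn, Ctsl and Naglu were among them. Among the 21 tested genes with no core in their windows, 14 had higher values and the median was 0.14. Over all 1148 tested genes with the core the median was 0.03, and over the 9247 without it 0.02. These are counts of letters in a window and carry no test.

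**Figure D2:**
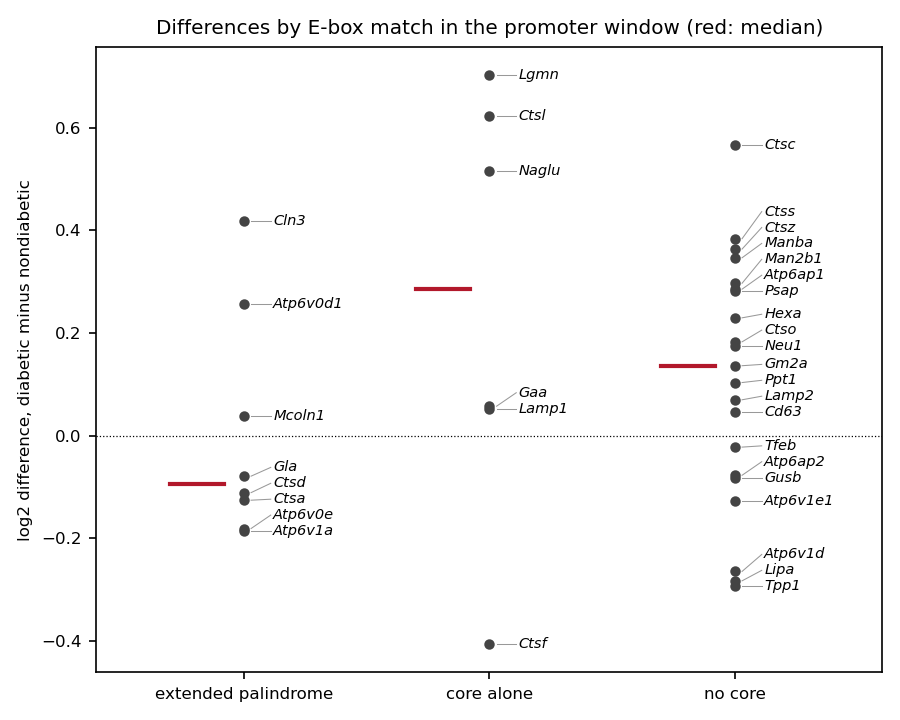
Log2 difference, diabetic minus nondiabetic, of the tested lysosomal genes with a promoter window, split by the E-box letters found in it: the extended palindrome TCACGTGA, the core CACGTG alone, or no core. Points are genes and red bars are medians, which lie at -0.10, 0.29 and 0.14. The 8 genes with the extended palindrome run from -0.19 for Atp6v1a to 0.42 for Cln3.

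Membrane proteins of the lysosome had higher values in diabetic cells for 5 of 5 genes, where 54% of all tested genes did. The median log2 difference was 0.05. All but Cln3 differed by only 0.04 to 0.07 and turned sign under at least 1 alternative fit. None of the 5 passed the test. Lamp1, the abundant membrane glycoprotein of late endosomes and lysosomes, had log2 values of 9.98, 9.84 and 9.77 in diabetic and 9.71, 9.90 and 9.82 in nondiabetic cells. Lamp2, its relative that also serves chaperone-mediated autophagy, had 9.36, 9.25 and 9.49 in diabetic and 9.34, 9.31 and 9.24 in nondiabetic cells. The groups overlapped for both. Their differences were 0.05 (SE 0.15) and 0.07 (SE 0.15), with 95% intervals of -0.29 to 0.39 and -0.27 to 0.41. Within the groups their SDs, 0.0987 for Lamp1 and 0.0926 for Lamp2, were among the 3 smallest of the 41, whose median was 0.329, against a median of 0.239 over all tested genes. Cd63, a tetraspanin of late endosomes that endothelial cells also keep in Weibel-Palade bodies, had 10.21, 10.41 and 10.41 in diabetic and 10.30, 10.06 and 10.53 in nondiabetic cells. Its groups overlapped, with a difference of 0.05 (SE 0.17).

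The remaining membrane genes carried more spread. Cln3, the membrane protein lost in juvenile Batten disease whose promoter holds the longer palindrome, had log2 values of 6.90, 6.97 and 7.15 in diabetic and 6.91, 6.50 and 6.35 in nondiabetic cells. A single nondiabetic array, replicate 1, reached into the diabetic range. The difference was 0.42 (SE 0.19), which is 1.34-fold, with a 95% interval of -0.01 to 0.85. Mcoln1, the calcium channel TRPML1 that lysosomes open on signals such as starvation, stood at 7.45 ± 0.42 in diabetic and 7.41 ± 0.20 in nondiabetic cells (SD, n = 3 each). Its difference was 0.04 on all arrays and -0.20 without diabetic replicate 1.

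Most cysteine proteases had higher values in diabetic cells. Legumain and the papain-type cathepsins form this class, and 8 of its 9 tested members lay higher in diabetic cells, with a median log2 difference of 0.53. The exception was Ctsf. The aspartic protease Ctsd and the serine proteases Ctsa and Tpp1 all had lower values, with a median of -0.13. This split by protease class was made after the values were seen, so it is a description. Over the 12 tested proteases together, 8 had higher and 4 had lower values, and the median was 0.37, or 0.15 without nondiabetic replicate 3, the lowest with an array left out.

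Lgmn encodes legumain, an endopeptidase that cuts after asparagine and trims other cathepsins to their mature forms. Its log2 values were 8.47, 8.11 and 7.57 in diabetic and 7.40, 7.21 and 7.44 in nondiabetic cells. The groups did not overlap, but diabetic replicate 3 exceeded the highest of them only narrowly. The difference was 0.70 (SE 0.23), which is 1.63-fold, with a 95% interval of 0.16 to 1.24 (limma adjusted p = 0.997). It was 0.49 without diabetic replicate 1 and 0.94 without diabetic replicate 3.

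Ctsl, cathepsin L, is a broad endopeptidase of lysosomes that endothelial progenitors are also known to use for invasion. Its log2 values were 11.23, 10.52 and 10.31 in diabetic and 9.95, 10.06 and 10.17 in nondiabetic cells, again without overlap. Diabetic replicate 1 lay well above the other diabetic arrays. The difference was 0.62 (SE 0.24), or 1.54-fold, with a 95% interval of 0.06 to 1.19 (limma adjusted p = 0.997). Without diabetic replicate 1 it was 0.35.

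Ctsh, cathepsin H, is mainly an aminopeptidase. It had log2 values of 6.13, 6.20 and 5.68 in diabetic and 5.58, 5.33 and 5.51 in nondiabetic cells. The groups did not overlap, and here diabetic replicate 3 rather than 1 differed from its group. The difference was 0.53 (SE 0.19), or 1.45-fold, with a 95% interval of 0.10 to 0.96 (limma adjusted p = 0.997), and it was 0.47 without diabetic replicate 1.

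The other cysteine cathepsins overlapped between the groups. Ctsb, cathepsin B, had log2 values of 9.98, 9.37 and 9.19 in diabetic and 9.29, 8.92 and 8.66 in nondiabetic cells, and only nondiabetic replicate 1 reached above the lowest diabetic array. Its difference was 0.56 (SE 0.25), and 0.32 without diabetic replicate 1. Ctss, cathepsin S, which trims the invariant chain of MHC class II in antigen presenting cells, stood at 9.03 ± 0.31 in diabetic and 8.65 ± 0.09 in nondiabetic cells (SD, n = 3 each). Its difference was 0.38, and 0.25 without diabetic replicate 1. Ctsc, which activates the granule proteases of leukocytes, differed by 0.57 (SE 0.33), and its nondiabetic replicate 3, at 6.58, lay far below the other nondiabetic arrays at 7.66 and 7.79. Without that array the difference was 0.18. Ctsz, a carboxypeptidase, and Ctso differed by 0.36 (SE 0.23) and 0.18 (SE 0.17). Without nondiabetic replicate 3 the Ctsz difference was 0.11, and without diabetic replicate 1 that of Ctso was 0.089. Ctsf differed by -0.41 (SE 0.26). Ctsk, the collagen-cleaving cathepsin of osteoclasts, was too dim to test, at a mean log2 level of 4.56 in diabetic and 4.63 in nondiabetic cells.

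Ctsd, the main aspartic protease of lysosomes, had log2 values of 10.24, 9.96 and 9.89 in diabetic and 10.09, 10.09 and 10.24 in nondiabetic cells. The groups overlapped and diabetic replicate 1 stood level with the highest nondiabetic array. The difference was -0.11 (SE 0.16), with a 95% interval of -0.48 to 0.26. Ctsa, the carboxypeptidase that protects the sialidase and galactosidase complex, and Tpp1, a tripeptidase, differed by -0.13 (SE 0.23) and -0.29 (SE 0.24).

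**Figure D3:**
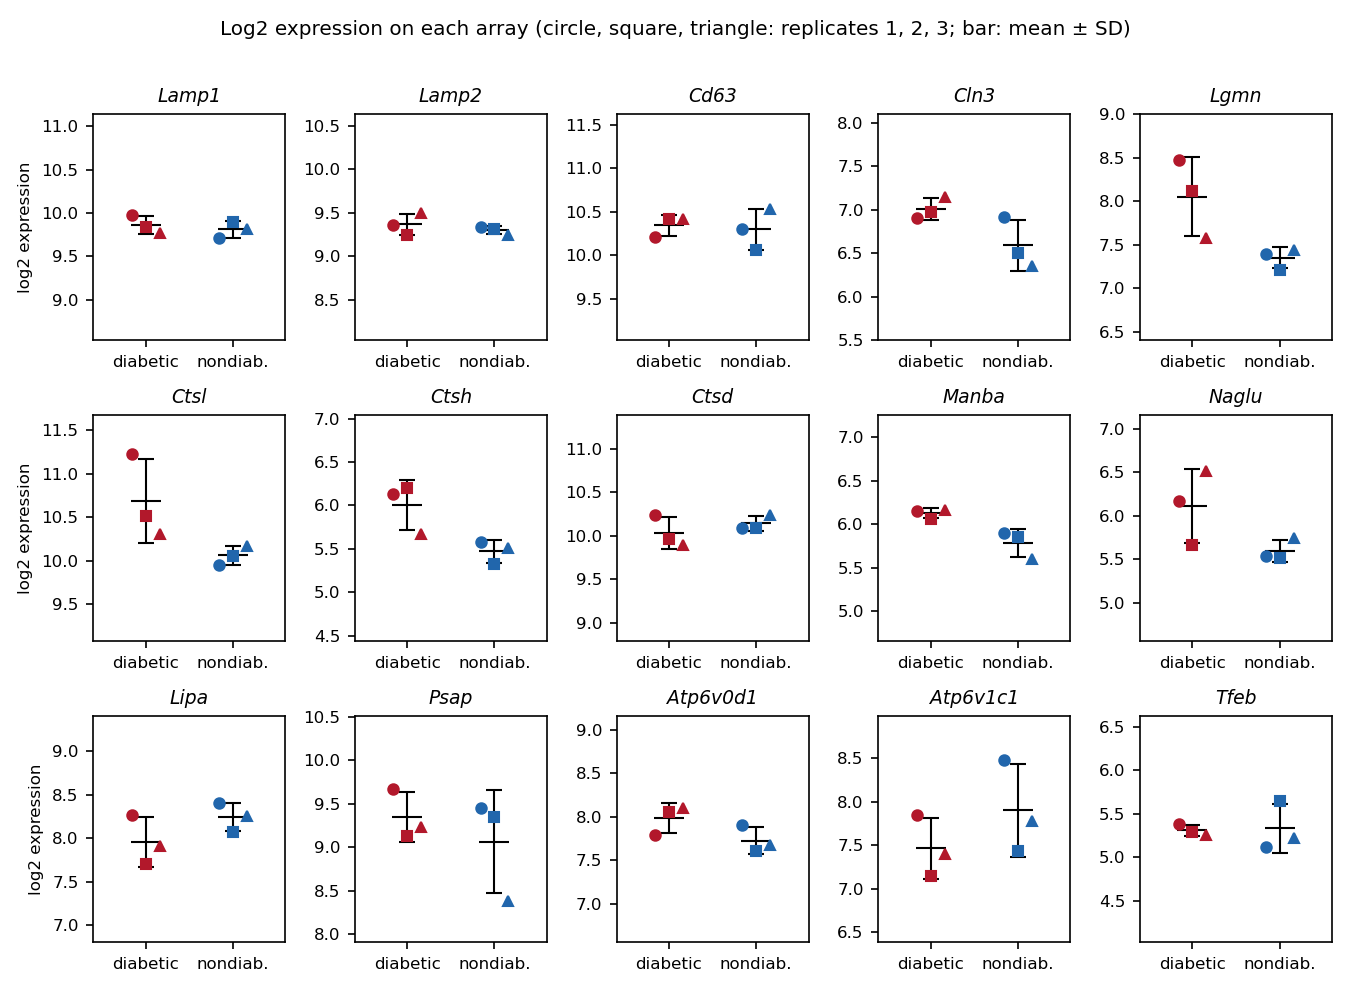
Log2 expression of 15 lysosomal genes on each array, with diabetic arrays in red on the left and nondiabetic arrays in blue on the right of each panel; circles, squares and triangles are replicates 1, 2 and 3, and bars are means ± SD. Every panel spans the same log2 range, so Lamp1 and Lamp2 show tight groups, Lgmn, Ctsl, Ctsh and Manba show groups that do not overlap, and diabetic replicate 1 is the high point of Lgmn and Ctsl.

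Marker genes of endothelial subtypes and of other marrow cells were read on the same arrays. Of all tested genes 54% had higher values in diabetic cells, the share beside which the counts below stand. Pan-endothelial markers had higher values for 4 of 16 tested genes and lower values for 12, with a median difference of -0.10. Sinusoidal endothelial markers had higher values in diabetic cells for 10 of 12 tested genes, and their mean per array was 8.33 to 8.94 in diabetic and 7.82 to 8.03 in nondiabetic cells, with no overlap. Stab2, a scavenger receptor of sinusoids, stood at 9.17 ± 0.47 in diabetic and 8.08 ± 0.09 in nondiabetic cells (SD, n = 3 each). Arteriolar markers had lower values for 12 of 12 tested genes, with means of 7.66 to 8.32 in diabetic and 8.09 to 8.58 in nondiabetic cells, which overlap. Monocyte and dendritic cell markers had higher values for 12 of 13 tested genes, with means of 7.33 to 7.52 in diabetic and 6.93 to 7.17 in nondiabetic cells, also with no overlap. Within that list Ms4a6c and Ccr2 differed by 0.68 (SE 0.19) and 0.50 (SE 0.18). Neutrophil markers had higher values for 11 of 11 tested genes, with means of 7.53 to 7.72 in diabetic and 7.07 to 7.41 in nondiabetic cells. B lineage and plasma cell markers had higher values for 8 of 11 tested genes, with a median difference of 0.37. Megakaryocyte and platelet markers did for 9 of 9, and basophil and mast cell markers for 7 of 9. Erythroid, mesenchymal and pericyte markers did for 4 of 6, 3 of 5 and 5 of 9, and T and NK cell markers for 2 of 6. From the B lineage list on, the means of the groups overlapped.

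Macrophages, which are rich in lysosomes, were read through 16 markers, of which 11 were left out as dim, among them Adgre1, Cd163, Vsig4, Timd4 and Marco. The 5 tested ones had means of 6.35 to 6.62 in diabetic and 6.34 to 6.39 in nondiabetic cells, which overlap. Over all 16 the means were 5.13 to 5.18 in diabetic and 5.01 to 5.06 in nondiabetic cells, without overlap. Among the dim markers Adgre1 averaged 5.03 ± 0.13 in diabetic and 4.70 ± 0.07 in nondiabetic cells and Cd163 averaged 4.33 ± 0.10 in diabetic and 4.17 ± 0.04 in nondiabetic cells (SD, n = 3 each), both without overlap. Mpeg1 averaged 5.32 ± 0.45 in diabetic and 4.62 ± 0.39 in nondiabetic cells and overlapped. These 3 were chosen after their values were seen. Csf1r, the receptor that macrophages and monocytes depend on, differed by 0.44 (SE 0.25), and Mertk, a receptor for apoptotic cells, by 0.13 (SE 0.27). Of 10 osteoclast markers 6 were dim, and the 4 tested ones had means of 6.14 to 6.64 in diabetic and 6.33 to 6.47 in nondiabetic cells. The part of sinusoidal, monocyte, macrophage, neutrophil and other marrow cell RNA in the cathepsin values was not tested.

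**Figure D4:**
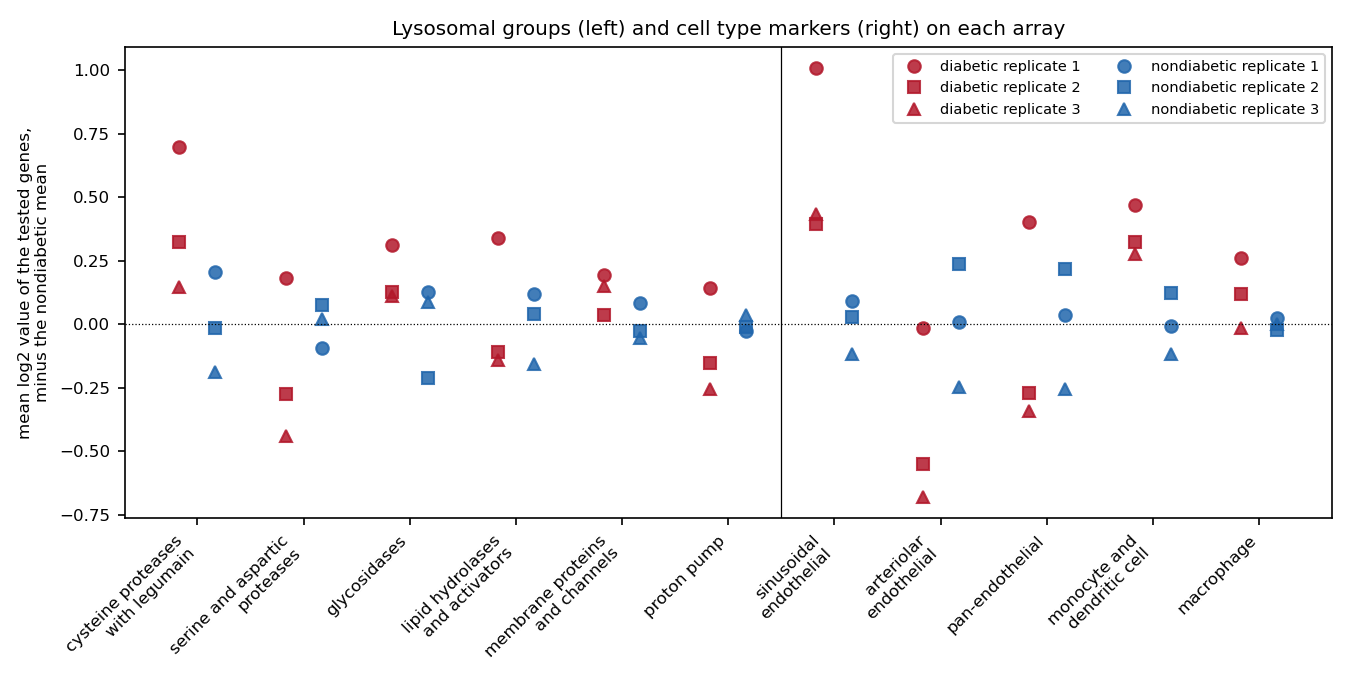
Mean log2 value of the tested genes of lysosomal groups and of some cell type marker lists on each array, minus the mean of the nondiabetic arrays. Diabetic arrays are in red and nondiabetic arrays in blue. The marker lists drawn are the sinusoidal, arteriolar and pan-endothelial, the monocyte and dendritic cell, and the macrophage list. The cysteine proteases ran from 7.80 to 8.35 on the diabetic and from 7.46 to 7.86 on the nondiabetic arrays before that subtraction, and of the marker lists drawn, the sinusoidal and the monocyte and dendritic cell lists have groups that do not overlap.

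Glycosidases leaned to higher values in diabetic cells, with 6 of 8 tested genes higher and a median log2 difference of 0.20. Without diabetic replicate 1 the median was 0.07. Manba, the beta-mannosidase that removes the last mannose of glycoprotein chains, had log2 values of 6.16, 6.06 and 6.16 in diabetic and 5.90, 5.85 and 5.60 in nondiabetic cells. The groups did not overlap and the diabetic arrays lay close together. The difference was 0.35 (SE 0.15), or 1.27-fold, with a 95% interval of -0.0054 to 0.70, and it was 0.33 without diabetic replicate 1. Naglu, which degrades heparan sulfate, had 6.17, 5.66 and 6.51 in diabetic and 5.54, 5.51 and 5.74 in nondiabetic cells. Only diabetic replicate 2 fell within the nondiabetic range, and the difference was 0.52 (SE 0.23). It was 0.32 without diabetic replicate 3 and 0.27 with array weights.

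The other glycosidases had intervals that spread to both sides of 0. Man2b1, the lysosomal alpha-mannosidase, differed by 0.30 (SE 0.19), the hexosaminidase subunit gene Hexa by 0.23 (SE 0.23) and the sialidase gene Neu1 by 0.17 (SE 0.16). The acid alpha-glucosidase gene Gaa, which breaks down glycogen, differed by 0.06 (SE 0.28), and the alpha-galactosidase gene Gla by -0.08 (SE 0.27). Gusb, the beta-glucuronidase, had the widest spread of the 41 genes, with a within-group SD of 0.659. Its nondiabetic arrays lay at 8.29, 6.67 and 7.04, and its difference of -0.08 had an SE of 0.40. Glb1, the beta-galactosidase used as a senescence marker, was not measured on its own, because its probe set also names Tmppe. That shared probe set read 6.65, 6.76 and 6.70 on diabetic and 6.36, 6.66 and 6.86 on nondiabetic arrays.

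Genes of lysosomal lipid breakdown lay on both sides, with 3 of 5 higher and a median difference of 0.10, which turned to -0.19 without diabetic replicate 1 and to -0.057 with nondiabetic replicate 3 left out. Lipa, the acid lipase that frees cholesterol and fatty acids from lipoproteins taken up by the cell, had log2 values of 8.27, 7.70 and 7.91 in diabetic and 8.40, 8.07 and 8.25 in nondiabetic cells. The groups overlapped through diabetic replicate 1. The difference was -0.28 (SE 0.19), with -0.44 without diabetic replicate 1 and -0.15 without diabetic replicate 2. Psap, the precursor of the saposins that present sphingolipids to their hydrolases, had 9.68, 9.14 and 9.23 in diabetic and 9.46, 9.35 and 8.39 in nondiabetic cells. Nondiabetic replicate 3 was far below the rest, and the difference of 0.28 (SE 0.30) was -0.06 without it. Gm2a, the activator for breakdown of the ganglioside GM2, had the smallest within-group SD of the 41 genes, 0.0911, and differed by 0.14 (SE 0.15). The thioesterase gene Ppt1 and the ceramidase gene Asah1 differed by 0.10 (SE 0.25) and -0.09 (SE 0.20).

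Most proton pump genes had lower values in diabetic cells, and none passed the test. Of its 10 tested genes 3 had higher and 7 had lower values in diabetic cells, with a median difference of -0.15. With an array left out that median ran from -0.26, without diabetic replicate 1, to -0.018, without diabetic replicate 3. Of the 6 subunits of the V1 sector that splits ATP 5 had lower values. Among the lower pump genes Atp6v1a, Atp6v1e1, Atp6v1h and Atp6ap2 turned sign with an array left out. Only Atp6v0e, Atp6v1c1 and Atp6v1d kept a lower value under every alternative fit. Atp6v0d1, a subunit of the V0 sector that carries protons through the membrane, had log2 values of 7.79, 8.06 and 8.10 in diabetic and 7.90, 7.60 and 7.67 in nondiabetic cells. Only nondiabetic replicate 1 lay above the lowest diabetic array, and the difference was 0.26 (SE 0.17). Atp6v1c1, a V1 subunit on the stalk that joins the sectors, had 7.84, 7.15 and 7.40 in diabetic and 8.48, 7.44 and 7.78 in nondiabetic cells. In both groups replicate 1 was the highest array and the groups overlapped. The difference was -0.44 (SE 0.29), at -0.63 with diabetic replicate 1 left out and -0.14 with nondiabetic replicate 1 left out.

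The other V1 genes, Atp6v1d, Atp6v1h, the catalytic subunit gene Atp6v1a and Atp6v1e1, differed by -0.26 (SE 0.24), -0.26 (SE 0.27), -0.19 (SE 0.31) and -0.13 (SE 0.29). Atp6v1b2, the B subunit of most tissues, was the only V1 gene with a higher value, 0.09 (SE 0.23), and its 2 probe sets disagreed, since the dimmer one differed by -0.14. In the V0 sector Atp6v0e differed by -0.18 (SE 0.20). Of the accessory genes, Atp6ap1 and the prorenin receptor gene Atp6ap2 differed by 0.29 (SE 0.23) and -0.08 (SE 0.31), and without diabetic replicate 1 that of Atp6ap1 was 0.097. The pump list had means per array of 8.03, 7.74 and 7.64 in diabetic and 7.87, 7.88 and 7.93 in nondiabetic cells. The 3 nondiabetic arrays lay close together and inside the diabetic range. Over the alternative fits tried, the cysteine proteases had a median above 0, from 0.35 without diabetic replicate 1 to 0.70 without diabetic replicate 3. The V1 genes had a median below 0, from -0.38 to -0.07 without the same arrays. Like the protease classes, the V1 group was split off after the values were seen. The fits reuse the same 6 arrays, so the kept signs of these medians are a description only. The difference between these groups of genes was not tested.

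Neighbouring lists of the lysosomal pathway held no called gene either by limma. Their counts stand beside 54% of all tested genes with higher values and a median of 0.02. Among other lysosomal hydrolases 15 of 23 tested genes had higher values, with a median of 0.11. Ctsw, a cathepsin of cytotoxic lymphocytes, stood at 6.03 ± 0.11 in diabetic and 5.16 ± 0.09 in nondiabetic cells (SD, n = 3 each). Its nondiabetic level was near the dim limit. Man2b2, an alpha-mannosidase, differed by 0.55 (SE 0.19). Among other membrane and transport proteins 18 of 26 had higher values, with a median of 0.14. The members with the smallest p went both ways there. Mfsd8, a lysosomal membrane protein of the Batten disease group, had 5.29 ± 0.33 in diabetic and 6.31 ± 0.52 in nondiabetic cells, a difference of -1.02 (SE 0.29), with a diabetic level near the dim limit. Laptm5, a lysosomal protein of blood cells, differed by 0.53 (SE 0.19).

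Other proton pump subunits lay on both sides, with 6 of 13 higher and a median of -0.01. The a2 subunit gene Atp6v0a2 differed by -0.31 (SE 0.18) and the proteolipid gene Atp6v0b by 0.19 (SE 0.17). Among genes that sort enzymes to lysosomes 18 of 29 had higher values, with a median of 0.09. Ap1m1, an adaptor subunit at the trans-Golgi, differed by 0.50 (SE 0.19) and the sorting receptor sortilin (Sort1) by -0.56 (SE 0.22). Of 19 tested genes of nutrient sensing on the lysosome and of the TFEB family, 13 had higher values and the median was 0.12. Rheb, the small GTPase that activates mTORC1, and Mlst8, a subunit of that kinase complex, differed by 0.54 (SE 0.19) and 0.35 (SE 0.15).

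Autophagy genes were split, with 13 of 25 higher and a median of 0.02. Atg5, needed to build the autophagosome, stood at 6.00 ± 0.43 in diabetic and 6.64 ± 0.15 in nondiabetic cells (SD, n = 3 each), while Atg3 differed by 0.34 (SE 0.17). Of the inhibitors of cathepsins 6 of 12 measured genes were dim, and 3 of the 6 tested ones had higher values, with a median of -0.01. Cystatin B (Cstb), which blocks cysteine cathepsins, differed by 0.47 (SE 0.22), and Serpinb6a by -0.06 (SE 0.17).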

How the data were processed

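The deposited values are on a log2 scale, and the submitters' processing notes name RMA, the robust multi-array average, with software and version not given in the sources used here. RMA corrects background, quantile normalizes and combines the probes of a set. Per the labels' protocols, RNA amplification used Ovation Pico WTA System V2. Of 41345 probe sets, 23521 named 1 gene, 1814 several and 16010 none here, by GEO's platform annotation, which can be old. RefSeq names (GRCm38.p6) served for older symbols of listed genes and for promoters. A gene took its brightest probe set. Dim genes, with means under the 40th percentile (log2 5.07), were not tested. Brightness depends on the probe set, so levels were not compared between genes.

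The test was lmFit and eBayes of limma 3.58.1 (R 4.3.3) on 6 arrays with no covariates, two-sided and adjusted by Benjamini and Hochberg over 13308 genes. Intervals are unadjusted 95% intervals. The number of arrays, 3 a group, limits the precision. The procedure was tested on simulated data. The changes put into those data were larger than any difference of the 41 tested lysosomal genes. The simulation therefore does not show how often differences of their size would be called. Members, gene lists, protease classes and pump sectors were chosen with earlier results of these data known. Values on every array are given for the 2 members of each role with the smallest p, members whose groups do not overlap, the 5 brightest and Tfeb, and also for Ctsb, chosen after its values were seen. The 2 genes with the smallest p were named in each pathway list. For marker lists the rule gave the same 2 genes and the brightest one, of which only those beside a result are printed. The alternatives changed the dim filter (none, 60th percentile), averaged probe sets or kept all of them, normalized by quantiles again or by medians, used trended robust variances or array weights, added a replicate block, and left out each array.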

Additional observations from a re-analysis of the deposited data

How the results depend on the processing

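Under all alternatives 0 lysosomal genes were called by limma, with 0 to 7 at an unadjusted p under 0.05. Over all tested genes that count ran from 370, with the filter at the 60th percentile, to 1132, with array weights. Over all tested genes 1 gene was called, 0 with the filter at the 60th percentile, and 0 to 1 with an array left out (0 without nondiabetic replicate 3). The labels share replicate numbers. Deviations of same-numbered arrays from their group means had correlations of -0.036, -0.064 and 0.016. Whether same-numbered samples were sorted or processed together was not tested. With a replicate block 0 lysosomal genes were called and the median difference was 0.07. By limma 7 of them then had an unadjusted p under 0.05, beside 545 of all tested genes. With array weights 7 did too, beside 1132 of all tested genes, where the main fit had 3 and 566. The smallest adjusted p among lysosomal genes with array weights was 0.47. The median difference ran from 0.02 to 0.16 with an array left out. Repeated quantile normalization moved the share of all genes with higher values to 48.0% and that of lysosomal genes to 58.5%. Of 41 tested genes 23 kept their sign under every alternative that gave them a value, 16 higher and 7 lower; Ctsh, Manba and Naglu among them were dim at the 60th percentile and had none there. With array weights the sign turned for Atp6ap2 (0.029), Gaa (-0.020), Gla (0.22), Lamp2 (-0.00059), Mcoln1 (-0.19) and Ppt1 (-0.051). It turned for Mcoln1 with repeated quantile normalization (-0.017) and for Atp6v1b2 with the mean of probe sets (-0.025) and on its other probe set (-0.14). With an array left out the sign was not kept, and the ranges were -0.24 to 0.088 for Asah1, -0.37 to 0.19 for Atp6ap2, -0.46 to 0.10 for Atp6v1a, -0.061 to 0.35 for Atp6v1b2, -0.37 to 0.094 for Atp6v1e1, -0.54 to 0.021 for Atp6v1h, -0.072 to 0.16 for Cd63, -0.36 to 0.0014 for Ctsa, -0.26 to 0.29 for Gaa, -0.33 to 0.15 for Gla, -0.41 to 0.40 for Gusb, -0.024 to 0.38 for Hexa, -0.0040 to 0.10 for Lamp1, -0.20 to 0.21 for Mcoln1, -0.19 to 0.27 for Ppt1, -0.057 to 0.48 for Psap and -0.13 to 0.14 for Tfeb, and among genes outside the set -0.34 to 0.046 for Cdh5, -0.15 to 0.34 for Mertk and -0.17 to 0.039 for Serpinb6a. The causes were not tested. Signal near the dim limit of 5.07 limits what can be said of Tfeb and Ctsk. It also limits what can be said of Ctsh and Ctsw in nondiabetic cells and of Mfsd8 in diabetic cells.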
